A study of Mus musculus with 23 samples.

Results

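Lysosomes are the acidic compartments in which endocytosed proteins, lipids and sugars are broken down, and an antibody that is taken up by a cell can end there. The 41 genes described here encode the hydrolases and membrane proteins of that compartment. They were chosen by symbol and all 41 were found among the 32285 genes of the deposited matrix. By role they are 13 cathepsins and other proteases, 14 glycosidases, sulfatases and lipid hydrolases, 3 cofactors and soluble lipid carriers, and 11 membrane proteins. The question was if their RNA follows the signal of a dosed antibody, cell class by cell class.

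The antibodies carried the dye AF647 (Alexa 647) and were given once into the tail vein at 45 mg/kg to mice of 12 weeks (3.3 months in the sample labels), and perfused brains were taken after 24 hours without olfactory bulbs, cerebellum, pons and medulla. An ATV (antibody transport vehicle) is an antibody engineered to bind a receptor of the capillary wall. ATV-TfR (DNP02_hIgG1_LALAPG_ATV35.23.2), which binds the transferrin receptor, went to TfR mu/hu KI mice, in which that receptor is a mouse/human knock-in. ATV-CD98hc (DNP02 LALAPG LLB2-10-8 monovalent), which binds the CD98 heavy chain, went to CD98hc mu/hu KI mice. Control IgG (DNP02_hIgG1_LALAPG) went to C57BL/6 mice, so treatment and genotype coincide in all 3 groups and cannot be told apart. Cells were dissociated with Actinomycin D and Anisomycin, which block transcription and translation, and the live ones were sorted into a negative, a low, a medium and a high bin of AF647. The gates came from tertiles of the positive cells of ATV-TfR and were used for every treatment. A treatment had 2 pools, each of a male (1) and a female (1) animal, and every bin of a pool gave 1 library. The control IgG negative bin has 1 library (pool 2), so there are 23 libraries in 12 groups. They hold 1129743851 UMIs (unique molecular identifiers, 1 per RNA molecule counted) in 265025 barcodes, with 1861238 to 90307818 UMIs per library. Of 256352 barcode sequences, 8510 occur in 2 or more libraries.

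Cells were clustered without the 41 genes and named from marker lists, with the ending -like. The level of a gene is given as CPM, its UMIs per 1000000 UMIs of the class in a library. UMIs count molecules, and levels were not divided by transcript length. A slope is the change of the group means in log2 per bin, from edgeR's quasi-likelihood test over all genes of a class, and a gene is said to have risen or fallen when its Benjamini-Hochberg adjusted p is below 0.05. In the comparisons of ATV-TfR with ATV-CD98hc a positive value means a higher slope or level in ATV-TfR.

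Many lysosomal genes are known as targets of the transcription factor TFEB and its relatives, which bind an E-box motif near the start of these genes. RefSeq promoter sequence (GRCm38.p6, 250 bases before to 50 bases after the start) was at hand for 36 of the 41 genes. The letters GTCACGTG, read on both strands, occurred in 11 of these 36 (30.6%), against 2.55% of all 27025 genes in the table. The shorter CACGTG, which lies inside the first motif, occurred in 14 of the 36 (38.9%) and in 8.09% of all genes. The 11 genes were Arsa, Cln3, Ctsa, Ctsd, Gla, Glb1, Lamp1, Lgmn, Mcoln1, Naglu and Sgsh. The 4 of them that rose with ATV-TfR signal in astrocyte-like cells are shown with the 250 bases before the start, 5′ to 3′ on the strand of the gene, and capitals mark GTCACGTG or its reverse complement. They lie at chr7:142387828-142388077 (minus strand), chr8:13158911-13159160 (plus), chr11:119355511-119355760 (minus) and chr15:89477425-89477674 (minus).
Ctsd: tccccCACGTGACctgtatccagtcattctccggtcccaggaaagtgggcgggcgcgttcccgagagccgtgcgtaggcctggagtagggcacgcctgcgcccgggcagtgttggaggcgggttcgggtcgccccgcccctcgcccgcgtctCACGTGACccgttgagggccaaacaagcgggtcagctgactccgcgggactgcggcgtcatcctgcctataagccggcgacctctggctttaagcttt
Lamp1: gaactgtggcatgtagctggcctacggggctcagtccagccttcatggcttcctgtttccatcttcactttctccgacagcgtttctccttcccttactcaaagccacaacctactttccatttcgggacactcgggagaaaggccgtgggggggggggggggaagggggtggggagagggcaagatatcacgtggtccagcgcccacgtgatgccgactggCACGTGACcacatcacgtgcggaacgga
Sgsh: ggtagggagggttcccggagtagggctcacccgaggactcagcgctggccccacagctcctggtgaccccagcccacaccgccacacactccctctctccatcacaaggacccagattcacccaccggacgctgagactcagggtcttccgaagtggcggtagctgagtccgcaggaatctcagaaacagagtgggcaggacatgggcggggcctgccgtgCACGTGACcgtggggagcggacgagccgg
Arsa: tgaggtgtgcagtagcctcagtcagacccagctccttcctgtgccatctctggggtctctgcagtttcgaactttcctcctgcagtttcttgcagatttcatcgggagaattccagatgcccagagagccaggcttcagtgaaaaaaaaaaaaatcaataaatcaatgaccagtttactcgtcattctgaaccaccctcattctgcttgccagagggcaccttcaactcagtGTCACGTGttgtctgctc
Ctsd holds 2 matches, which begin 245 and 98 bases before the start. In Lamp1, Sgsh and Arsa the single match begins 28, 29 and 18 bases before it. A match is a string of letters and was not tested as a binding site.

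The compartment's RNA was richest in microglia- and border macrophage-like cells. The 41 genes gave a median of 3.05% of all UMIs in microglia-like cells (lowest 2.35%, highest 3.89%, 17 libraries) and 1.63% in border macrophage-like cells (1.31% to 2.03%, 21 libraries). Fibroblast-like cells followed with 0.846% (0.667% to 0.975%, 21 libraries) and choroid plexus epithelial-like cells with 0.701% (0.513% to 0.866%, 23 libraries). Astrocyte-, pericyte- and oligodendrocyte-like cells had medians of 0.496%, 0.489% and 0.479%, and their ranges overlapped (0.429% to 0.620%, 0.369% to 0.664% and 0.410% to 0.582%). Endothelial-like cells, which make up most of the high bins of both ATVs but 1.93% and 1.81% of those of control IgG, had 0.413% (0.322% to 0.470%, 21 libraries), and neutrophil-like cells 0.336% (0.277% to 0.373%, 5 libraries). These orders are descriptions, since the classes were made from the same cells.

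Among the 12 classes with 6 or more libraries, 23 of the 41 genes had their highest median level in microglia-like cells. There the aspartic protease Ctsd reached 5923 CPM (4505 to 10390), the cysteine protease Ctss 4864 (3143 to 7679) and legumain, Lgmn, 2432 (2082 to 3092). Ctsz followed with 1752 and Laptm5 with 1744. Border macrophage-like cells were led by Ctss (2083, range 997 to 3455), Ctsb (1442), the sphingolipid cofactor Psap (1100), Ctsc (1087) and Laptm5 (954). Astrocyte-like cells were led by Psap (707, range 525 to 1038), the tetraspanin Cd63 (597), Laptm4a (446), Lamp1 (391) and Ctsd (283). In endothelial-like cells Laptm4a led (767, range 499 to 849), then the aminopeptidase Ctsh (593, range 401 to 716), Lamp1 (350), Psap (267) and Ctsl (235).

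Outside these classes, a few members stood highest in one other class. Oligodendrocyte-like cells had the highest medians of Lamp1 (967), Scarb2 (230) and the cholesterol exporter Npc1 (262). Fibroblast-like cells had those of the collagen-degrading protease Ctsk (97.9), Ctsl (1669), the glycogen-degrading enzyme Gaa (213) and Laptm4b (88.5). Choroid plexus epithelial-like cells had those of Psap (1464), Cd63 (869) and Gla (12.3). Laptm4a was highest in pericyte-like cells (1096), the channel Mcoln1 in endothelial-like cells (21.8), Arsa in ependymal-like cells (22.0) and Ctso in B cell-like cells (113).

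**Figure D1:**
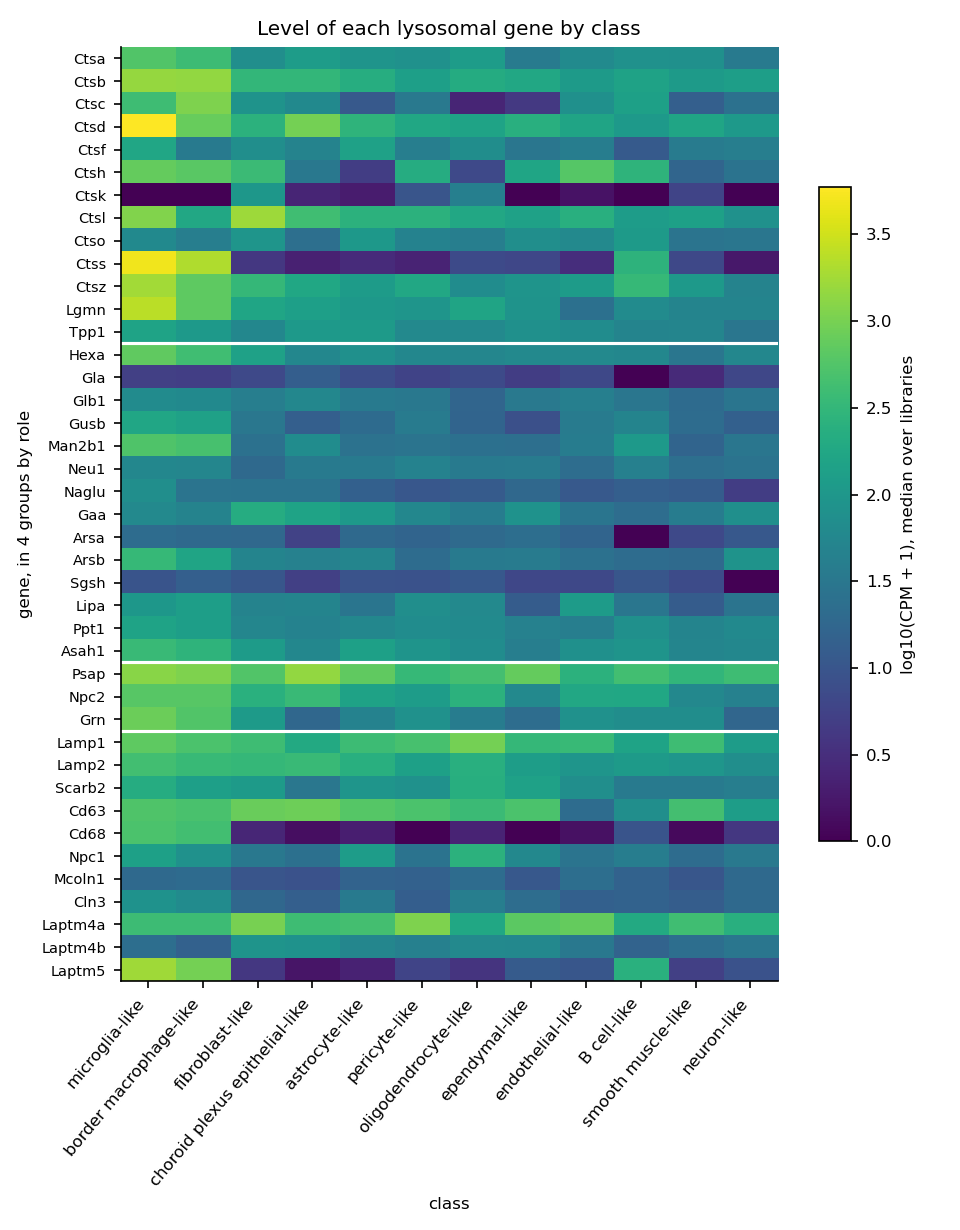
Colour gives the median level over libraries, as log10(CPM + 1), of each of the 41 genes (rows, in the 4 groups of roles divided by white lines) in each class with at least 6 libraries (columns). The brightest cells are Ctsd and Ctss in microglia-like cells, with medians of 5923 and 4864 CPM.

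The share of the 41 genes followed the antibody signal differently from class to class. In astrocyte-like cells of ATV-TfR it was 0.468% and 0.453% in the negative, 0.492% and 0.485% in the low, 0.547% and 0.541% in the medium and 0.620% and 0.600% in the high bin (pools 1 and 2), and no library of one bin overlapped the next. The same class in ATV-CD98hc had 0.429% and 0.526%, 0.517% and 0.496%, 0.429% and 0.496%, and 0.485% and 0.502%, with all bins overlapping. Microglia-like cells of ATV-TfR went from 2.90% and 3.08% in the negative to 3.10% and 3.36% in the low and 3.40% and 3.89% in the medium bin, and its high bin held under 20 such cells per library. Border macrophage-like cells of ATV-TfR had 1.75% and 1.67% in the negative, 1.64% and 1.66% in the low, 1.71% and 1.46% in the medium and 1.31% and 1.41% in the high bin, so that only the high bin stood apart. Endothelial-like cells of ATV-TfR had 0.431% and 0.450%, 0.445% and 0.461%, 0.413% and 0.424%, and 0.393% and 0.402% over the same bins, with the low bin reaching highest. Pools differed as well: in ATV-CD98hc the share was lower in pool 1 than in pool 2 in 32 of 37 pairs of class and bin, against 23 of 35 in ATV-TfR and 2 of 15 in control IgG.

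**Figure D2:**
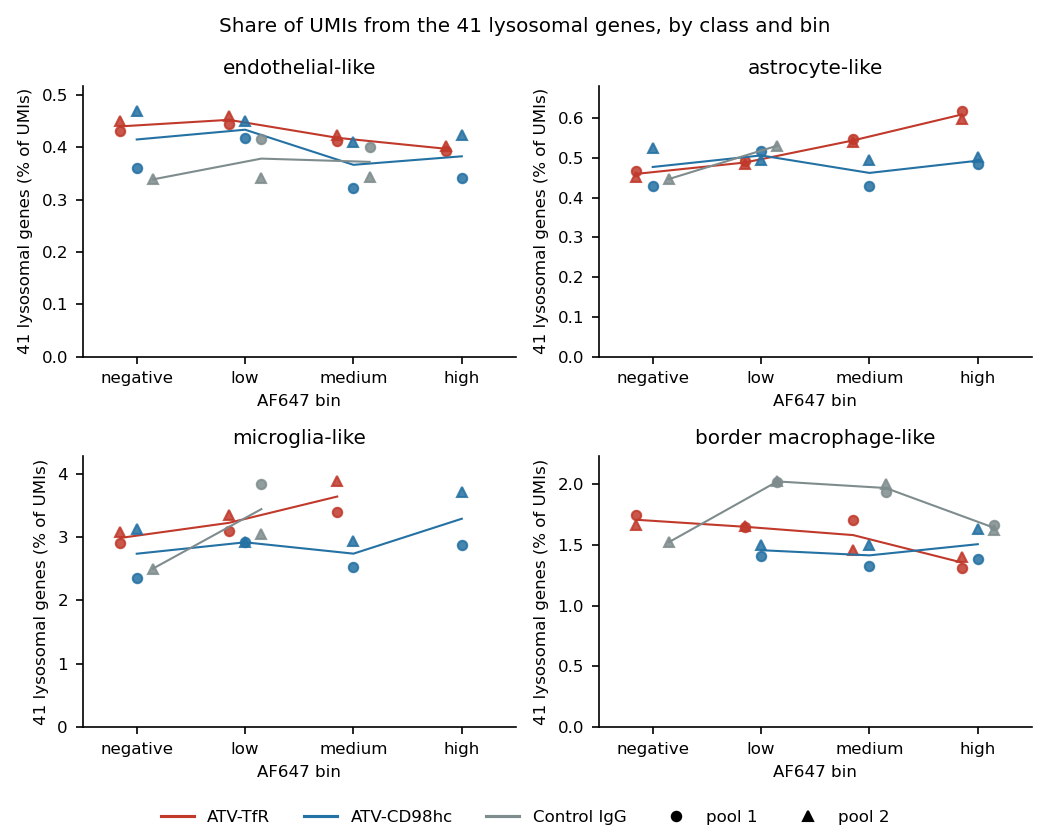
Percent of a class's UMIs that came from the 41 genes (vertical axes) in each AF647 bin (horizontal axes) for 4 classes. Points are libraries (circle pool 1, triangle pool 2) and lines join the means of a treatment; the red line of ATV-TfR goes up from 0.453% and 0.468% to 0.600% and 0.620% in astrocyte-like cells and is lowest in the high bin (1.31% and 1.41%) in border macrophage-like cells.

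In astrocyte-like cells of ATV-TfR members rose more often than they fell. Of the 41 genes 15 rose over the bins and 2 fell, against 12.1% of 16240 genes that rose and 9.64% that fell. The median slope of the 41 was 0.08 (all genes -0.01), and 29 had a positive slope. Risers were found in every role: 5 of the 13 proteases, 4 of the 14 other hydrolases, all 3 cofactors and lipid carriers, and 3 of the 11 membrane proteins. The class numbered 416 to 15091 cells per ATV-TfR library.

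Psap encodes prosaposin, the precursor of the saposins that help hydrolases to reach sphingolipids. Its level in ATV-TfR was 543 and 568 CPM in the negative bin, 569 and 615 in the low, 710 and 786 in the medium and 1029 and 1038 in the high bin (pools 1 and 2). Each bin lay above the one before, with low and negative adjoining, and the slope was 0.33 ± 0.04 (SE; adjusted p = 6e-06). In ATV-CD98hc the same bins had 525 and 662, 704 and 733, 674 and 840, and 802 and 744, with no call. The negative bin lay below the others, and the medium bin overlapped both the low and the high bin. With the pool as a block in edgeR the rise of Psap in ATV-CD98hc was called (0.09, adjusted p = 0.048).

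Lamp1, the abundant glycoprotein that lines the lysosomal membrane, stood at 351 and 302 in the negative, 356 and 337 in the low, 444 and 423 in the medium and 578 and 565 in the high bin of ATV-TfR (slope 0.31 ± 0.03, adjusted p = 3.5e-06). Negative and low overlapped, and medium and high stood apart from both and from each other. In ATV-CD98hc its levels were 308 and 385, 397 and 373, 372 and 411, and 443 and 444. Npc2, the soluble carrier that hands cholesterol to Npc1, was at 138 and 129, 152 and 148, 180 and 169, and 229 and 215 in ATV-TfR (slope 0.27 ± 0.04, adjusted p = 4.2e-05). Its bins did not overlap. The cysteine protease Ctsb was at 206 and 199, 213 and 211, 253 and 254, and 339 and 326 (slope 0.27 ± 0.03, adjusted p = 6.8e-06), again with no overlap.

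The other risers of ATV-TfR were the receptor for glucocerebrosidase Scarb2 (0.27), Ctsd (0.24), Gaa (0.23), progranulin, Grn (0.21), the peptidase Tpp1 (0.17), Laptm4a (0.17), the sulfatase Arsa (0.14), the thioesterase Ppt1 (0.12), and, at low levels, the heparan sulfamidase Sgsh (0.32), Ctsc (0.26) and Ctsh (0.87). Their adjusted p-values ran from 8.4e-06 (Scarb2) to 0.035 (Arsa). Ctss and Laptm5, both best known from myeloid cells, fell by 1.51 and by 1.26 per bin, from 7.88 and 9.63 CPM to 0 and 0.831 (Ctss) and from 7.03 and 7.09 to 0.287 and 0.831 (Laptm5). Of the 11 promoters with the GTCACGTG motif, 4 belonged to genes that rose (median slope 0.04), and of the 25 without it 9 (median slope 0.08).

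**Figure D3:**
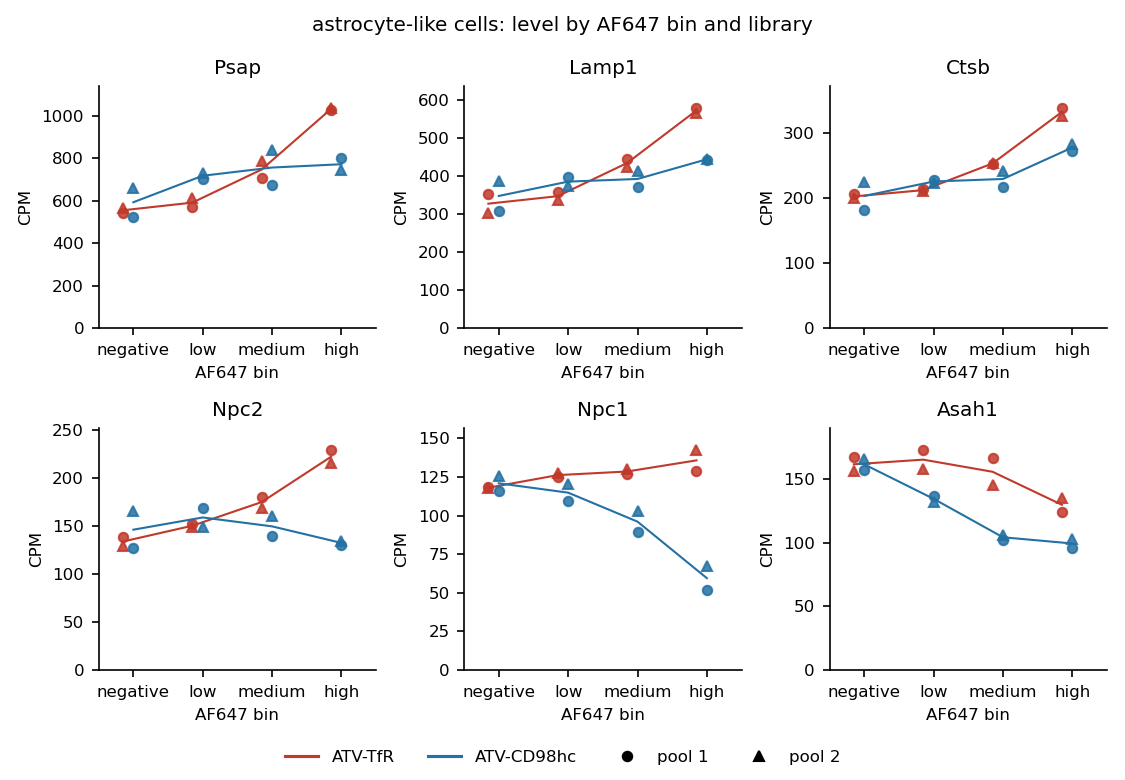
Level (CPM, vertical axes) of 6 members in astrocyte-like cells by AF647 bin. Points are libraries (circle pool 1, triangle pool 2) and lines join the means; Psap, Lamp1, Ctsb and Npc2 are highest in the high bin of ATV-TfR (1029 and 1038 for Psap), and Npc1 and Asah1 are lowest in the high bin of ATV-CD98hc (51.9 and 67.0 for Npc1).

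In ATV-CD98hc the astrocyte-like cells showed 3 members that rose and 5 that fell, against 11.0% and 9.06% of all genes. The median slope of the 41 was -0.06 (all genes -0.01), and 17 were positive. Npc1, the membrane protein through which cholesterol leaves the lysosome, had 116 and 126 CPM in the negative, 109 and 120 in the low, 89.3 and 103 in the medium and 51.9 and 67.0 in the high bin (slope -0.37 ± 0.04, adjusted p = 5.6e-06). The high bin lay below every other. In ATV-TfR Npc1 had 118 and 118, 125 and 127, 127 and 130, and 129 and 142 over the same bins, with no call. With the pool as a block in edgeR its rise there was called (0.09, adjusted p = 0.014).

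Acid ceramidase, Asah1, fell from 157 and 165 in the negative bin of ATV-CD98hc over 136 and 132 and over 102 and 106 to 95.9 and 103 in the high bin (slope -0.28 ± 0.04, adjusted p = 1.3e-05). Medium and high overlapped and lay below negative and low. Of the cathepsins, Ctsf had 129 and 175, 153 and 144, 102 and 133, and 99.9 and 130 (slope -0.19 ± 0.05, adjusted p = 0.014), and medium and high overlapped and lay below the low bin. Ctso had 118 and 121, 109 and 101, 101 and 92.4, and 96.9 and 74.6 (slope -0.19 ± 0.04, adjusted p = 0.0035), with the negative bin above all others. Ctss fell as well (by 1.14 per bin). The risers were Ctsb (0.10, adjusted p = 0.043), the dermatan sulfate sulfatase Arsb (0.14, adjusted p = 0.044) and Ctsh (1.57). Ctsb had 182 and 225, 228 and 223, 217 and 242, and 272 and 283, and only its high bin stood apart. Arsb had 55.2 and 42.7, 52.5 and 53.2, 66.3 and 54.4, and 74.4 and 69.6.

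The slopes of the antibodies were compared in the same fit. Of the 41 genes 16 had a higher slope in ATV-TfR and 1 a lower one, against 6.0% and 4.99% of all genes, and 31 of the differences were positive (median 0.17, all genes 0.00). Among members whose log2 CPM averaged at least 4, the largest difference was that of Npc1, with 0.47 ± 0.06 (adjusted p = 2.5e-05), then Npc2 with 0.36 ± 0.06 (adjusted p = 0.0004), Grn with 0.34 ± 0.09 (adjusted p = 0.014) and Ctsd with 0.27 ± 0.08 (adjusted p = 0.026). Grn had 44.7 and 43.7, 43.6 and 47.4, 48.9 and 55.4, and 65.6 and 63.5 in ATV-TfR. In ATV-CD98hc it had 38.1 and 49.1, 49.4 and 50.1, 34.1 and 49.3, and 38.2 and 35.4. Ctsd had 228 and 254, 257 and 277, 289 and 324, and 360 and 382 in ATV-TfR, and 208 and 295, 315 and 308, 219 and 297, and 230 and 310 in ATV-CD98hc, where pool 1 lay below pool 2 in all bins but the low one.

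At matched bins, the levels themselves were higher in ATV-TfR for 13 members and lower for 2, against 13.1% and 11.0% of all genes. This fit takes the bins of a pool as separate samples although they share their mice. The fixed block for the pool, which lies within a treatment, gave no test of this comparison, and no other model of the pool was fitted. The SEs and p-values of the comparison may thus be too small. Npc1 was higher by 0.49 ± 0.06 in log2 over the 4 bins (adjusted p = 8.4e-06), Asah1 by 0.38 ± 0.05 (adjusted p = 3.2e-05), Cd63 by 0.33 ± 0.07 (adjusted p = 0.0026) and Grn by 0.32 ± 0.08 (adjusted p = 0.0092). Cd63 had 588 and 572, 655 and 639, 729 and 694, and 677 and 657 in ATV-TfR against 479 and 701, 606 and 571, 417 and 519, and 476 and 574 in ATV-CD98hc. In the negative bin, where cells carried no detected antibody, the 2 treatments overlapped for Npc1, Asah1, Cd63 and Grn. Ctsh (-1.003) and Arsb (-0.18, adjusted p = 0.045) were lower in ATV-TfR. The count of 15 fell when either pool of ATV-TfR or pool 1 of ATV-CD98hc was left out, and rose in another such fit. Shares of all genes called in those fits are not given.

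**Figure D4:**
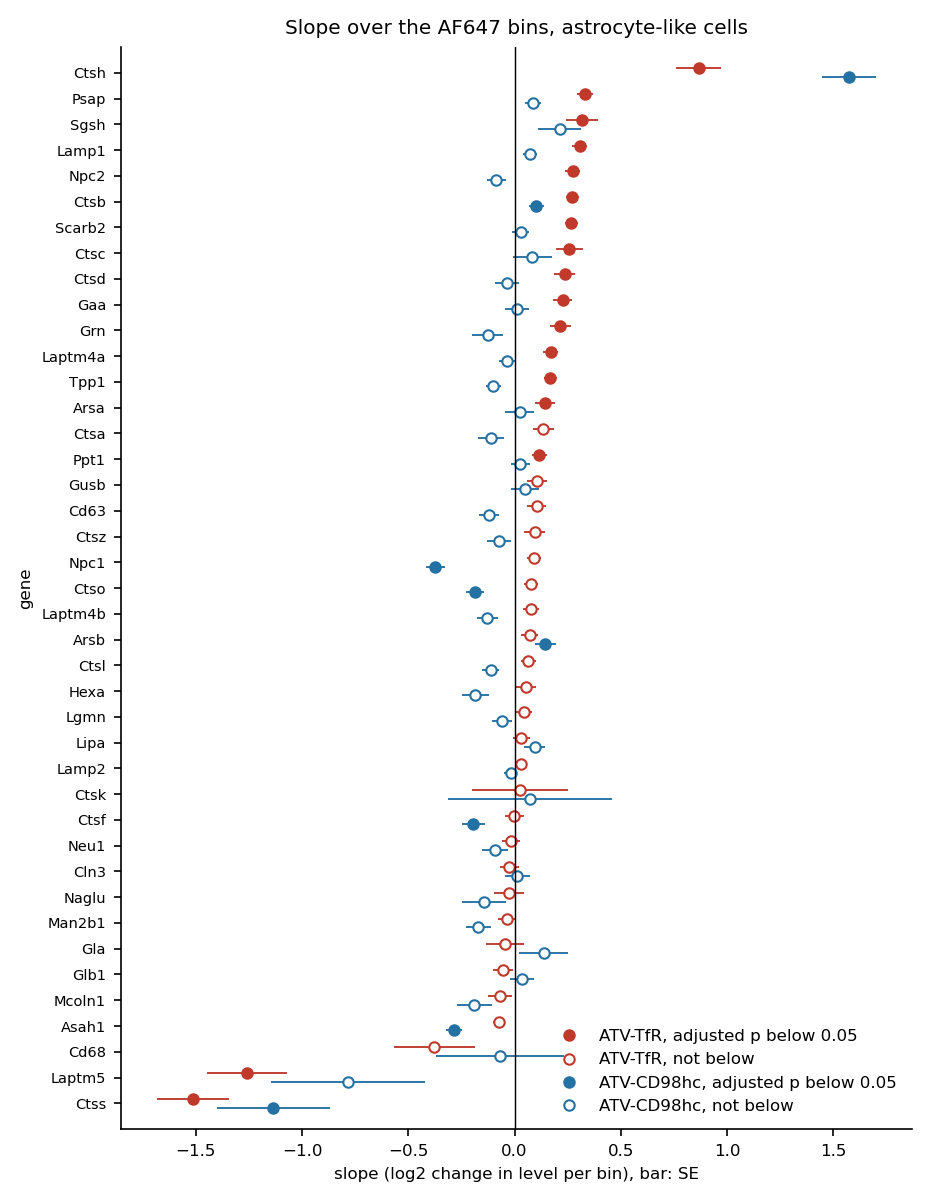
Slope over the AF647 bins (log2 change of level per bin, horizontal axis) of each of the 41 genes in astrocyte-like cells for ATV-TfR (red) and ATV-CD98hc (blue). Bars are SE and filled points have an adjusted p below 0.05; 15 genes rose and 2 fell in ATV-TfR, 3 rose and 5 fell in ATV-CD98hc.

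Other genes of the lysosome, on lists that hold none of the 41, moved in astrocyte-like cells too, and their counts stand against the same 12.1% and 9.64% of all genes in ATV-TfR and 11.0% and 9.06% in ATV-CD98hc. In ATV-TfR 5 of 27 tested hydrolases rose and none fell, led by Lyz2 (0.58), Ids (0.31) and Gm2a (0.20). Of 19 tested membrane proteins 5 rose (Mfsd1 0.23, Tpcn2 0.18, Tmem106b 0.18), and of 18 subunits of the V-ATPase, the proton pump that acidifies lysosomes, 6 rose (Atp6v0c 0.22, Atp6v0a2 0.22, Atp6v0e2 0.20). None of either list fell. Of 10 genes that sort enzymes to the lysosome 1 rose (M6pr, the mannose 6-phosphate receptor, 0.16). Of 14 regulators 2 rose (Lamtor1 0.14, Lamtor2 0.12) and 2 fell (Mitf -0.21, Fnip1 -0.10). Of 3 cathepsin inhibitors 2 rose, Cst3 (0.32) and Cstb (0.15). In ATV-CD98hc no gene of these lists rose, while 4 of 27 hydrolases (Smpdl3a -0.35, Smpd1 -0.19, Creg1 -0.19), 3 of 19 membrane proteins (Ostm1 -0.40, Tmem175 -0.26, Mfsd8 -0.25), 2 of 18 V-ATPase subunits (Atp6v0b -0.14, Atp6v0e -0.13) and 4 of 14 regulators fell.

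Other properties of these cells moved with the bins. The summed level of the 12 endothelial markers in astrocyte-like cells was 8.01 to 15.1 CPM in the negative bins of both ATVs, 916 and 1505 in the high bin of ATV-TfR, and 1220 to 1430 in the medium and high bins of ATV-CD98hc. Ctsh, which stands at 593 in endothelial-like cells, went from 3.66 and 3.29 to 28.7 and 14.1 in ATV-TfR and from 1.52 and 2.13 to 49.0 and 34.2 in ATV-CD98hc. Cells with no endothelial marker UMI made up 87.9% of the class, but this share differed between bins. For ATV-TfR 1547 of 1606 and 1906 of 1960 negative cells were left, against 176 of 630 and 146 of 416 high ones. For ATV-CD98hc 3456 of 3572 and 1805 of 1873 negative cells remained. Its medium libraries retained 344 of 1307 and 772 of 1842, and the high ones 103 of 210 and 125 of 224. Among cells without such a UMI the slope of Ctsh was 0.18 (adjusted p = 0.65) in ATV-TfR and 1.23 (adjusted p = 5.5e-06) in ATV-CD98hc. In these cells 11 members still rose and 2 fell in ATV-TfR (4.17% and 3.09% of genes), and 1 rose and 3 fell in ATV-CD98hc (4.05% and 4.5% of genes). The microglia markers other than Sparc (11 genes) went from 122 and 126 to 28.9 and 45.3 in ATV-TfR. Without cells that had a UMI of these, 15 members rose and 2 fell in ATV-TfR (9.82% and 7.34% of genes). The 12 astrocyte markers summed to 18703 and 18346 in the negative and 26299 and 27019 in the high bin of ATV-TfR, and to 19349 and 19455 against 16830 and 16306 in ATV-CD98hc.

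Different clusters also held the class in different bins. Cluster 2, led by C030018K13Rik, Lhx2 and Cspg5, held 30.4% and 33.9% of astrocyte-like cells in the negative and 50.8% and 51.9% in the high bin of ATV-TfR, but 37.5% and 48.8% and then 6.67% and 10.7% in ATV-CD98hc. Cluster 8, led by Agt, Igsf1 and Itih3, went from 22.5% and 19.4% to 51.0% and 43.8% in ATV-CD98hc. Within cluster 2 alone, 17 members rose and 3 fell in ATV-TfR (12.7% and 9.49% of genes), and within cluster 8 alone 8 rose and 3 fell (4.88% and 2.85%). For the difference of the slopes cluster 2 had 37 of 40 positive values (median 0.18, all genes 0.14) and cluster 8 had 21 of 39 (median 0.01). No difference was called in cluster 8, and the share of all genes called there is not given. In cluster 2 the difference was 0.56 ± 0.15 for Npc1 (adjusted p = 0.29) and 0.62 ± 0.25 for Grn (adjusted p = 0.64), above their values in the whole class, and 0.11 for Npc2, below it. In cluster 8 Npc1 had 0.09 ± 0.08 and Npc2 0.30 ± 0.07 (adjusted p = 0.058). Cluster 2 of the high bin of ATV-CD98hc held 14 and 24 cells, so only the library of pool 2 entered its fit, and its slopes and differences rest there on 24 cells. In cluster 8 no fall of a member was called in ATV-CD98hc, and the 1 member called was Ctsh, which rose (1.11). The share of all genes called there is not given. The slope of Npc1 in ATV-CD98hc was -0.49 ± 0.14 in cluster 2 (adjusted p = 0.27) and -0.10 ± 0.06 in cluster 8, that of Ctso -0.27 and -0.12, and that of Asah1 -0.15 and -0.16. Without the high bins 6 members rose and 2 fell in ATV-TfR (1.15% and 2.85% of genes), and 1 rose and 3 fell in ATV-CD98hc (8.69% and 7.12%). With the pool as a block 4 rose and 9 fell in ATV-CD98hc (11.9% and 10.1% of genes). The counts for ATV-TfR and for the difference fell when either pool of ATV-TfR was left out. Shares of all genes called in those fits are not given. Psap, Lamp1, Npc2 and Ctsb kept their call in ATV-TfR under all 20 alternatives. In control IgG astrocyte-like cells had only 2 libraries with 20 cells, of which the low one held 40 cells, 65.0% of them in cluster 5, and its trend is not described.

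Microglia-like cells, the class richest in these genes, had members that rose and none that fell. Of 40 tested genes (Ctsk was too low) 7 rose in ATV-TfR, against 9.21% of 11967 genes that rose and 2.16% that fell, with a median slope of 0.11 (all genes -0.02). The negative, low and medium libraries of ATV-TfR held 1983 and 1227, 308 and 295, and 41 and 46 of these cells. The largest slope belonged to Cd63, a tetraspanin of late endosomes and lysosomes, with 367 and 389 CPM in the negative, 652 and 761 in the low and 1011 and 1002 in the medium bin (0.77 ± 0.14, adjusted p = 0.00074). Ctsb had 1088 and 1161, 1493 and 1745, and 2454 and 2610 (0.65 ± 0.11, adjusted p = 0.00034). Neither gene overlapped between bins.

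Beta-glucuronidase, Gusb, had 172 and 167, 161 and 187, and 308 and 341 in ATV-TfR (0.53 ± 0.11, adjusted p = 0.0018), so that only the medium bin stood apart. The carboxypeptidase Ctsz had 1694 and 1752, 2121 and 2391, and 2736 and 3275 (0.46 ± 0.13, adjusted p = 0.020). Gaa (0.43), Ctsd (0.37) and Ctsl (0.36) rose too. In ATV-CD98hc 2 members rose, near the share of all genes (5.67%), and none fell, against 1.81%. These were Cd63 (0.46 ± 0.10, adjusted p = 0.0030) and Ctsb (0.29 ± 0.07, adjusted p = 0.014). Cd63 had 215 and 449, 428 and 462, 513 and 534, and 543 and 1192 from the negative to the high bin. Ctsb had 974 and 1295, 1246 and 1186, 1659 and 1220, and 1711 and 2214, with overlap between the negative, low and medium bins. The high libraries held 60 and 29 cells, and pool 2 was the higher of them.

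The control IgG libraries gave no call in microglia-like cells (0 of 40 by edgeR, against 1.25% of genes called). At an unadjusted p under 0.05 there were 12 members, and the share of all genes at that threshold is not given. The control IgG cells were few, with 861 in the negative library and 23 and 21 in the low ones. Cd63 stood at 337 there in the negative and 767 and 650 in the low libraries, and Ctsb at 1116 and then 2519 and 1744. No member's slope differed between ATV-TfR and ATV-CD98hc by edgeR, against 3.13% of genes called, and 28 of 40 differences were positive. At an unadjusted p under 0.05 there were 7, again with no share of all genes given at that threshold. With the pool as a block 2 were called as higher (3.6% of genes), and the risers of ATV-CD98hc went up to 6 (6.65% of genes). Without pool 1 of ATV-CD98hc the count of differences rose and that of the slopes of ATV-CD98hc fell, with no share of all genes given. At matched bins Cd63 (0.66 ± 0.16, adjusted p = 0.036) and Gaa (0.49 ± 0.13, adjusted p = 0.050, just under the threshold) were higher in ATV-TfR, against 1.5% of genes that were higher and 0.526% that were lower. Here too the bins of a pool were taken as separate samples, so these p-values may be too small. Both calls were lost without either pool of ATV-TfR or without pool 1 of ATV-CD98hc, and more members were called without pool 2 of ATV-CD98hc. Shares of all genes called in those fits are not given. Gaa had 52.2 and 57.3, 63.8 and 74.1, and 94.2 and 88.4 in ATV-TfR, and 44.4 and 50.2, 57.8 and 63.3, and 49.8 and 48.8 in the same bins of ATV-CD98hc.

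**Figure D5:**
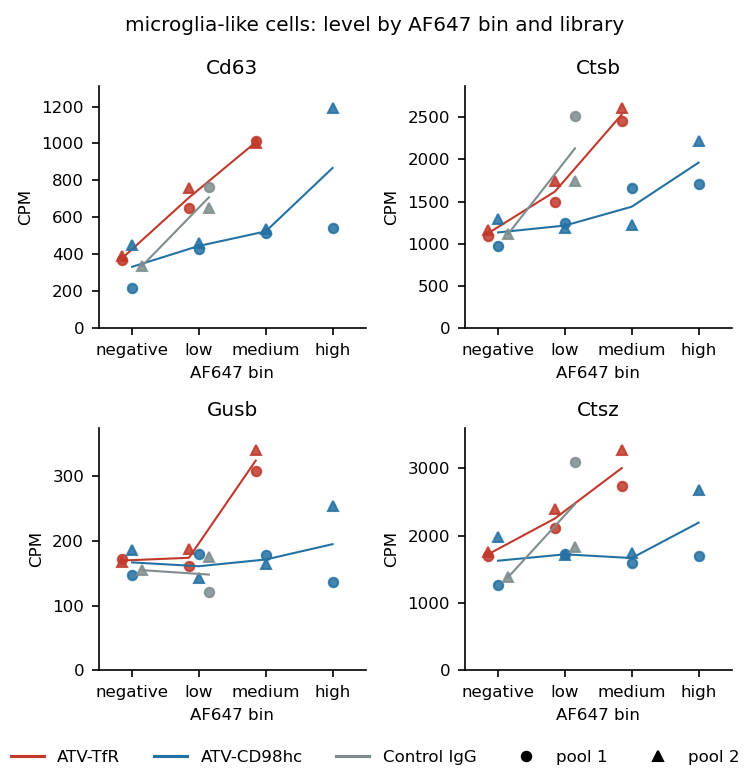
Level (CPM, vertical axes) of Cd63, Ctsb, Gusb and Ctsz in microglia-like cells by AF647 bin. Points are libraries with at least 20 such cells (circle pool 1, triangle pool 2) and lines join the means of a treatment; in ATV-TfR Cd63 goes from 367 and 389 to 1011 and 1002, and the high bin is missing there for lack of cells.

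On the other lists, the hydrolases Lyz2 (0.92), Smpdl3a (0.87) and Dpp7 (0.52) and the cathepsin inhibitors Cst7 (2.15) and Cstb (0.82) rose in microglia-like cells of ATV-TfR, and no V-ATPase subunit, sorting gene, regulator or other membrane protein did. In ATV-CD98hc Lyz2 (0.66), Smpdl3a (0.52), Cstb (0.72), Slc15a3 (0.36) and Atp6v1f (0.28) rose, and Tmem175 (-0.47), Cd164 (-0.31) and Pla2g15 (-0.25) fell. Lyz2 (2.20) and Cstb (1.92) also rose in control IgG, where Cd164 fell by 2.06. The 12 astrocyte markers summed to 376 and 515 CPM in the negative and 4685 and 2235 in the medium bin of ATV-TfR. The 12 endothelial markers summed to 42.8 and 43.9 in the negative and 3539 and 2591 in the high bin of ATV-CD98hc. Among cells with no endothelial marker UMI (81.2% of the class) ATV-TfR had 6 members that rose (7.35% of genes) and ATV-CD98hc 0 called (0.457% of genes). In ATV-CD98hc that filter left 26 of 169 and 34 of 90 cells in the medium bin. In the high bin it left 27 of 60 and 13 of 29. Libraries under 20 cells were not fitted, so that high bin rested on 1 library. In the medium bin of ATV-TfR 32 of 41 and 34 of 46 cells were left. The part of astrocyte RNA in the slopes of microglia-like cells was not tested. The count for ATV-TfR fell when either of its pools was left out, and shares of all genes called in those fits are not given.

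Border macrophage-like cells went the other way with ATV-TfR. Their leading genes were Cd74, H2-Eb1, H2-Ab1 and H2-Aa, which dendritic cells share. Of 37 tested members (not Ctsk, Gla, Sgsh or Laptm4b) 5 fell and none rose, against 3.65% of 9145 genes that fell and 5.33% that rose. Libraries held 43 to 132 of these cells in ATV-TfR. Ctss, which trims the invariant chain in antigen-presenting cells, had 3240 and 3131 CPM in the negative bin, 1936 and 2136 in the low, 2083 and 1683 in the medium and 1044 and 1774 in the high bin (-0.44 ± 0.08, adjusted p = 0.00046). Arsb had 246 and 202, 113 and 119, 158 and 127, and 86.2 and 104 (-0.42 ± 0.09, adjusted p = 0.0039). In both genes the negative bin stood above all others.

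Psap had 1466 and 1863, 1005 and 1392, 1030 and 1100, and 579 and 977 in these cells (-0.42 ± 0.08, adjusted p = 0.0012), with the negative bin highest and the high bin lowest. Npc2 had 885 and 913, 652 and 597, 594 and 487, and 403 and 494 (-0.40 ± 0.08, adjusted p = 0.0022). Ctsz fell too (-0.35 ± 0.07, adjusted p = 0.0016). Psap and Npc2, which rose in astrocyte-like cells, and Ctsz, which rose over the negative to medium bins of microglia-like cells, fell here; the difference between classes was not tested. By edgeR no member was called in ATV-CD98hc, against 6.77% of genes, or in control IgG, against 2.37%. At an unadjusted p under 0.05 there were 9 and 2 members, and the shares of all genes at that threshold are not given. Ctss had 1668 and 1704, 997 and 1282, and 2021 and 2491 from the low to the high bin of ATV-CD98hc, whose negative bin held under 20 cells. In control IgG it had 1828 in the negative library, 2589 and 3028 in the low, 3360 and 3455 in the medium and 2826 and 2584 in the high bin.

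On the other lists Lyz2 (-0.33), Slc29a3 (-0.43) and Cst3 (-0.37) fell in border macrophage-like cells of ATV-TfR. The 12 endothelial markers summed there to 28.3 and 6.13 in the negative, 29.4 and 50.5 in the low, 1583 and 1245 in the medium and 11531 and 9592 in the high bin. Among cells with no endothelial marker UMI (75.0% of the class) 5 members fell in ATV-TfR (3.85% of genes), namely Ctss, Psap, Npc2, Ctsz and Ctsh, and 1 in ATV-CD98hc (Lamp1 -0.44). Arsb was not called there (-0.17 ± 0.12, adjusted p = 0.45). The filter kept 56 of 62 and 42 of 43 cells in the negative bin of ATV-TfR, but 33 of 114 and 31 of 91 in its high bin. In the medium bin of ATV-CD98hc it kept 23 of 108 and 22 of 107. Median depth went from 3763.5 and 3153 UMIs per cell in the negative to 1999 and 1916 in the high bin, and its part was not tested. With the pool as a block 9 members fell for ATV-TfR (5.26% of genes), 1 rose and 4 fell for ATV-CD98hc (3.18% and 6.82%) and 1 rose for control IgG (1.68%). The count for ATV-TfR fell when either of its pools was left out, and that for ATV-CD98hc rose without pool 2 of control IgG. Shares of all genes called in those fits are not given.

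Endothelial-like cells, which line the blood vessels and meet the antibody first, had members that rose and members that fell with signal. In ATV-TfR 3 of 41 rose and 6 fell, against 7.52% and 7.54% of 15749 genes, and in ATV-CD98hc 2 rose and 4 fell, against 3.75% and 5.94%. Risers were thus about as frequent among the members as among all genes, and those named below are single genes. The median slope of the 41 was 0.04 in ATV-TfR and 0.05 in ATV-CD98hc, below the 0.09 of all genes in each. The negative libraries of both ATVs held 56 to 125 of these cells and high ones 8739 to 15782. Lysosomal acid lipase, Lipa, which frees cholesterol and fatty acids from lipoprotein lipids, rose with both antibodies. In ATV-TfR it had 98.6 and 77.0, 78.5 and 66.3, 115 and 119, and 137 and 137 (0.36 ± 0.06, adjusted p = 0.00013). In ATV-CD98hc it had 65.8 and 78.9, 99.6 and 115, 144 and 133, and 151 and 145 (0.44 ± 0.07, adjusted p = 0.0001). Control IgG had 136 in the negative, 141 and 146 in the low and 94.1 and 111 in the medium libraries, and its negative library was close to the 137 and 137 of the high bin of ATV-TfR.

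The dipeptidyl peptidase Ctsc rose by 0.37 ± 0.10 (adjusted p = 0.013) and by 0.35 ± 0.11 (adjusted p = 0.046). It had 43.6 and 77.0, 37.8 and 27.7, 59.8 and 54.9, and 90.3 and 89.1 in ATV-TfR, and 32.9 and 107, 56.1 and 68.9, 76.8 and 87.0, and 99.1 and 109 in ATV-CD98hc, where the 2 negative libraries lay far apart. Beta-galactosidase, Glb1, rose in ATV-TfR (30.3 and 23.9, 31.2 and 27.7, 37.7 and 41, and 40.2 and 39.9; 0.31 ± 0.10, adjusted p = 0.044). The glycosidase gene Hexa fell in ATV-TfR from 135 and 106 over 78.5 and 74.7 and over 56.8 and 58.8 to 53.8 and 50.3 (-0.30 ± 0.08, adjusted p = 0.011). Grn fell from 174 and 135 over 100.3 and 101 and over 68.0 and 77.8 to 66.5 and 70.1 (-0.30 ± 0.07, adjusted p = 0.0055), and Ctsb from 159 and 228 over 144 and 152 and over 110 and 111 to 94.9 and 101 (-0.23 ± 0.07, adjusted p = 0.036). In ATV-CD98hc Ctsd had 224 and 265, 229 and 242, 122 and 158, and 120 and 152 (-0.23 ± 0.07, adjusted p = 0.045).

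Laptm5 (-2.02 and -2.18), Ctss (-1.42 and -1.12) and Cd63 (-0.74 and -0.93) fell with both antibodies in endothelial-like cells, from low levels. Laptm5 went from 53.1 and 69.0 to 0.766 and 0.894 in ATV-TfR. The microglia markers other than Sparc went along, from 119 and 133 to 5.38 and 5.40 in ATV-TfR and from 46.1 and 50.7 over 154 and 221 to 6.90 and 6.34 in ATV-CD98hc. Without the cells that had a UMI of these (95.0% of the class was left) 2 members rose and 7 fell in ATV-TfR (3.6% and 6.58% of genes), and 1 rose and 3 fell in ATV-CD98hc (2.36% and 4.83%). Cluster 24, led by Gkn3, Vegfc and Egfl8, held 46.4% and 47.1% of the class in the negative and 4.2% and 3.8% in the high bin of ATV-TfR, and within it 1 member rose and 3 fell there (2.6% and 4.05% of genes). With the pool as a block 7 members rose and 8 fell over the bins of ATV-TfR (14.2% and 8.69% of genes). The count for ATV-CD98hc fell without its pool 1, and that for ATV-TfR fell without either of its pools. Shares of all genes called in the fits without a pool are not given. Cluster 26, led by Plvap and Igfbp3, held another 37.6% and 31.8% of that negative bin.

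No member's slope differed between the antibodies in endothelial-like cells (0 of 41 by edgeR, against 0.362% of genes called, and 0 at an unadjusted p under 0.05). The differences ran from -2.49 (Cd68) to 0.53 (Sgsh), with a median of -0.01. At matched bins Laptm5 (0.72 ± 0.14, adjusted p = 0.0045) and Cd63 (0.74 ± 0.20, adjusted p = 0.048) were higher in ATV-TfR, against 1.66% of genes that were higher and 0.959% that were lower. The bins of a pool were again taken as separate samples, so these p-values may be too small. The count of 2 fell when either pool of ATV-TfR was left out and rose without pool 2 of ATV-CD98hc. Shares of all genes called in those fits are not given. Summed over all bins of a pool, none of the 41 was called between either ATV and control IgG (2 pools against 2). The control pools were unlike in makeup, as pool 1 has no negative library and that of pool 2 gave 2419 of its endothelial-like cells. By edgeR 0 of 41 and 0 of 16597 genes were called in each comparison, 3 and 1 of the 41 had an unadjusted p under 0.05 for ATV-TfR and ATV-CD98hc, and DESeq2 called 1 and 0. Without pool 2 of control IgG the count by edgeR rose for ATV-TfR, and the share of all genes called there is not given. The median of the 41 was 0.11 for ATV-TfR and 0.05 for ATV-CD98hc. Control IgG gave no call over its bins (0 of 41 by edgeR, against 0.4% of genes). At an unadjusted p under 0.05 there were 3 members, and the share of all genes at that threshold is not given. On the other lists 4 of 18 V-ATPase subunits rose in ATV-TfR (Atp6v1a 0.32, Atp6v1f 0.24, Atp6v0b 0.23; 7.52% of all genes rose), as did 1 of 18 in ATV-CD98hc (Atp6v1a 0.30; 3.75% of all genes), and M6pr rose in both (0.21 and 0.29).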

How the data were processed

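The authors deposited UMI counts, whole numbers per gene and barcode made with Cell Ranger 7.1.0, per the file headers, with no normalization; the remaining deposited tables (unit: other) name barcodes, genes and libraries. The submitters' processing notes also name Seurat 4 and 5 and the builds mm10 and GRCm38. The protocol text in the labels ends before library construction, so the chemistry is not given in the sources used here.

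Barcodes were kept (249715) from 500 genes and 800 UMIs upwards when at most 10% of UMIs were mitochondrial, and 15689 doublets were removed with Scrublet (scanpy 1.11.5; percentile 94 of the score in 8 libraries where the automatic threshold marked under 0.5% or over 25%, among them all 4 high-bin libraries of the ATVs and none of their negative ones), leaving 234026 cells. Counts were log-normalised, and 2000 variable genes without the 41 members, 50 principal components and a graph of 15 neighbours were split by Leiden at resolution 1 into 37 clusters (leidenalg 0.10.2, igraph 0.11.9), of which 31 were named from 20 marker lists (a marker detected in a share of 0.05 of cells and at 0.25 of its highest level, 0.5 of a list) and formed 14 classes. The other 6 clusters (10103 cells, 4.32%) stay unnamed. UMIs were summed per class and library (at least 20 cells) and fitted with edgeR 4.0.16 (quasi-likelihood, TMM factors, filterByExpr, 1 mean per group, all libraries of a class in 1 fit; limma 3.58.1, R 4.3.3), with two-sided tests and Benjamini-Hochberg adjustment over all genes of a class and contrast. The fit was checked on counts simulated from endothelial-like cells, with independent libraries and no pool effect. That check does not cover libraries that share mice. Values per library are given for up to 4 called members per direction with the largest effects at an average log2 CPM of at least 4, for the 5 highest members of a class, and for members that other results turn on; from other lists up to 3 genes per direction are named. Levels are given for single libraries, with no interval; counting error is smallest in the deep classes. Pools hold different animals, and each pool holds 2 mice. The main fit takes every library as independent, so its p-values rest on the spread between the libraries of a group. That spread is taken over all groups of a class, whose libraries share pools. Bins of 1 pool come from the same animals, per the labels, and deviations of same-numbered libraries from their group means correlated by -0.237 to 0.917 across genes in the 46 pairs of groups compared; fits with the pool as a replicate block were alternatives. Alternatives were RLE factors, DESeq2 1.42.0, other filters on genes, cells and doublets, cells without UMIs of another class's markers, high minus negative, and leaving out each pool. Single clusters, the high bins left out, and the microglia marker filter without Sparc, which astrocyte- and endothelial-like cells express, were chosen after seeing the data. The members and all lists were chosen with earlier results of these data known. Promoters are RefSeq's (GRCm38.p6, the build of the notes).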

Additional observations from a re-analysis of the deposited data

Results flagged for a closer look

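The difference between the slopes of ATV-TfR and ATV-CD98hc passed the test (edgeR, adjusted p below 0.05) for 17 members in astrocyte-like cells, and a test of the difference itself is what singles them out here. In log2 per bin it was 0.47 for Npc1, 0.36 for Npc2, 0.34 for Grn, 0.27 for Ctsd and 0.27 for Tpp1. Ctso had 0.26, Ctsa 0.25, Psap 0.25, Scarb2 0.24, Lamp1 0.23 and Cd63 0.23. Asah1 and Laptm4a had 0.21 each, Laptm4b 0.20, Ctsl 0.18 and Ctsb 0.17. Ctsh went the other way, with -0.71, and with -1.05 (adjusted p = 0.0030) in cells with no endothelial marker UMI. Npc1 fell in ATV-CD98hc, and Npc2 rose in ATV-TfR. The share of cells in clusters 2 and 8 moved in different directions in the 2 treatments. Within cluster 8 alone none of these differences was called. The share of all genes called there is not given, so the lack of calls is no result about the members. Of the 16 members with a called positive difference in the whole class, 6 had a larger and 10 a smaller one in cluster 2, where the high bin of ATV-CD98hc rests on 1 library of 24 cells (median 0.17, against 0.24 in the class). Among them Grn had 0.62, Npc1 0.56, Npc2 0.11 and Scarb2 0.03. The median difference of all genes was itself positive in cluster 2, as given above. It lay closer to that of the members there than in the whole class. In cluster 8 all 16 were smaller and 2 of them negative (median 0.12), with 0.30 for Npc2 (adjusted p = 0.058), 0.18 for Grn, 0.09 for Npc1 and -0.01 for Asah1. Treatment and genotype cannot be told apart in these values.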

How the results depend on the processing

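Counts are members called by edgeR unless another tool is named. Shares of all genes called are given above for some of these settings only. Where they are missing, a changed count cannot be told apart from a change in how many genes were called at all. Setting pool as a replicate block ended no call of a named member; it raised the count from 9 to 15 (endothelial-like, ATV-TfR), from 8 to 13 (astrocyte-like, ATV-CD98hc), from 2 to 6 (microglia-like, ATV-CD98hc), from 0 to 2 (microglia-like, difference of slopes), and in border macrophage-like cells from 5 to 9 (ATV-TfR), 0 to 5 (ATV-CD98hc) and 0 to 1 (control IgG). The matched-bin difference could not be fitted with the block. Another normalization (RLE) left every count within 1.5 times, though it shifted the median slope of all genes in endothelial-like cells by -0.103 (ATV-TfR) and -0.0914 (ATV-CD98hc), and that of control IgG by 0.116 in astrocyte-like and 0.122 in microglia-like cells. DESeq2 called 14 for endothelial-like cells of ATV-TfR, 6 for the matched-bin difference in microglia-like cells and 1 for the pools of ATV-TfR against control IgG. That matched-bin difference in microglia-like cells (2) became 8 with no filter on low counts, 1 with cells of at least 1500 UMIs, 1 without the top 10 percent of doublet scores and 0 without cells holding an endothelial marker UMI. The doublet filter also gave 3 for microglia-like cells of ATV-TfR, 3 for endothelial-like cells of ATV-CD98hc and 1 for the matched-bin difference there, which was 0 at an average log2 CPM of at least 4.

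Leaving out cells with any microglia marker UMI, Sparc included, kept 3.80% of endothelial-like and 28.3% of astrocyte-like cells. The endothelial-like negative libraries were left with 11 and 9 cells in ATV-TfR and 10 and 7 in ATV-CD98hc. Being under 20 cells they were not fitted, so the endothelial-like slopes ran from the low to the high bin. The filter gave 2 and 2 for the slopes of ATV-TfR and ATV-CD98hc and 0 for the matched-bin difference in endothelial-like cells. Over these fewer bins Hexa turned there (ATV-TfR, 0.16). In astrocyte-like cells Ctsb turned (ATV-CD98hc, -0.12). In the astrocyte-like cells left by that filter every member called in ATV-CD98hc fell. These were Ctsa, Ctsf, Ctsl, Ctsz, Hexa, Asah1, Lamp1, Cd63, Npc1 and Laptm4a, and the share of all genes is not given. Leaving out cells with an endothelial marker UMI gave 4 for astrocyte-like and 0 for microglia-like cells of ATV-CD98hc and 1 for border macrophage-like cells of ATV-CD98hc. High minus negative gave 3 for endothelial-like cells of ATV-CD98hc and 10 for the difference of slopes in astrocyte-like cells. Of the settings chosen after seeing the data, cluster 24 alone gave 4 (slope, ATV-TfR) and 1 (matched bins). Cluster 2 alone, with 1 library in the high bin of ATV-CD98hc, turned Arsb (-0.16) and Ctsf (0.088) in ATV-CD98hc and Arsb at matched bins (0.043). Cluster 8 alone gave 11, 1, 0 and 8 for ATV-TfR, ATV-CD98hc, the difference and matched bins. Without the high bins these were 8, 4, 5 and 5 in astrocyte-like cells, and 5, 2 and 1 (ATV-TfR, ATV-CD98hc, difference) in endothelial-like cells. The cause of these changes was not tested.

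Leaving out each pool of each treatment in turn gave 8 to 21 (ATV-TfR), 6 to 8 (ATV-CD98hc), 4 to 20 (difference) and 4 to 22 (matched bins) in astrocyte-like cells. It gave 3 to 13, 2 to 6, 0 to 0 and 0 to 11 in endothelial-like cells, with 0 to 0 in control IgG. In microglia-like cells it gave 0 to 9, 1 to 3, 0 to 2 and 0 to 16. In border macrophage-like cells the range was 0 to 5 (ATV-TfR), 0 to 1 (ATV-CD98hc) and 0 to 0 (control IgG), and for the pools against control IgG 0 to 1 (ATV-TfR) and 0 to 0 (ATV-CD98hc). A treatment left with 1 pool was assumed to vary like the others. Shares of all genes called in these fits are not given, so the counts show only how far calls depended on single pools. Of the counts under the other settings, 146 stayed within 1.5 times and 42 did not. Of the values of named members, 549 kept direction and call, 159 lost the call and 5 turned. Depth limits the fitted medium and high microglia-like libraries (29 to 169 cells) and the border macrophage-like libraries (28 to 512 cells).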

Other observations

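Choroid plexus epithelial-like cells, which make cerebrospinal fluid and had 23 libraries, showed the members in another arrangement. In ATV-CD98hc 13 of 39 tested members rose over the bins and none fell, against 14.7% of 12648 genes that rose and 19.6% that fell, and 36 slopes were positive (median 0.15, all genes 0.00). The risers were Ctsh (0.52), Lipa (0.37), Scarb2 (0.33), Naglu (0.30), Ppt1 (0.29), Gaa (0.22), Tpp1 (0.21), Ctsc (0.21), Glb1 (0.19), Laptm4b (0.19), Ctsb (0.18), Ctsd (0.18) and Psap (0.15). Ctsd had 666 and 668 CPM in the negative bin, 916 and 864 in the low, 958 and 974 in the medium and 1021 and 1255 in the high bin, with no overlap between bins. Ctsb had 231 and 274, 277 and 259, 299 and 349, and 380 and 452. In ATV-TfR 2 members rose (Ctsh 0.38, Lipa 0.28) and 2 fell, against 11.7% and 14.2% of genes. No member's slope was called as different between the antibodies (0 of 39 by edgeR, against 0.119% of genes called). At an unadjusted p under 0.05 there was 1 member, and the share of all genes at that threshold is not given. In control IgG Ctsl and Lgmn fell by 0.21 each, against 7.92% of genes. In choroid plexus epithelial-like cells the 12 endothelial markers summed to 73.5 and 51.1 in the negative and 2282 and 2181 in the high bin of ATV-CD98hc, and their part in these slopes was not tested. The class joined clusters 16 and 34, with medians of 6949.5 and 14375.5 UMIs per cell. Its negative libraries of ATV-CD98hc held 980001 UMIs in 142 cells and 332450 in 45. The high ones held 1694383 in 122 cells and 1599622 in 111. The part of depth and of the cluster mix was not tested.

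In oligodendrocyte-like cells of ATV-TfR Ctsl (0.93 ± 0.11, adjusted p = 1.4e-06), Glb1 (0.60), Lgmn (0.41), Asah1 (0.28) and Ctsh (1.08) rose and Ctsz, Lipa and Npc1 fell (5 and 3 of 41 members, against 13.6% and 8.69% of genes). In ATV-CD98hc Ctsh (3.00), Ctsc (2.55) and Glb1 (0.65) rose and Npc1 fell by 0.31 in them, against 9.0% and 3.54% of genes. With either ATV these counts were near the shares of all genes. The slope was higher in ATV-TfR for Ctsl (by 0.59) and Npc2 (by 0.50), against 2.1% of genes, and lower for Ctsc (-1.94) and Ctsh (-1.92), against 2.94%. Ctsc and Ctsh stood at low levels in this class, with an average log2 CPM of 1.44 and 3.02. The 12 endothelial markers of oligodendrocyte-like cells summed to 5.85 and 2.32 CPM in the negative and 283 and 408 in the medium bin of ATV-TfR, and to 14.8 and 4.69 and then 6083 and 5351 in ATV-CD98hc. In pericyte-like cells Ctsh (0.86 and 0.94), Ctsc (0.60 and 0.74), Lipa (0.35 and 0.45) and Npc2 (0.26 and 0.31) rose with ATV-TfR and ATV-CD98hc, of 39 tested members and against 12.9% and 13% of genes, and Lipa (1.12) and Ctsc (1.58) rose in control IgG too, against 0.564% of genes. Mcoln1 (0.52) rose in ATV-CD98hc. With either ATV the share of members that rose in pericyte-like cells was near that of all genes. Ctss (-1.81 and -1.61), Cd63 (-0.30 and -0.45) and Lgmn (-0.24 and -0.28) fell with both ATVs, Neu1 (-0.20) in ATV-TfR and Ctsf (-0.30) and Ctsk (-0.43) in ATV-CD98hc, against 8.9% and 11.3% of genes. The share of the 41 genes in pericyte-like cells of ATV-TfR was 0.583% and 0.577% in the negative and 0.472% and 0.471% in the high bin. Their 12 endothelial markers summed to 266 and 968 CPM in the negative and 17351 and 17188 in the high bin of ATV-TfR, and to 527 and 477 and then 19568 and 18193 in ATV-CD98hc. The part of endothelial RNA in these slopes was not tested. In fibroblast-like cells 4 members rose and 4 fell with each ATV, against 8.46% and 5.26% of genes in ATV-TfR and 6.75% and 6.17% in ATV-CD98hc. These classes were fitted once, with no alternative settings.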
